A study of Mus musculus with 4 samples.

Results

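The proteasome genes of the mouse retina were examined in RNA-seq libraries from *rd7* and wild-type animals. The members were the loci whose symbol starts with Psm, a subunit letter from a to g and a number, that had a status of OK in every library and a mean level of at least 1 FPKM (fragments per kilobase of transcript, scaled to the mapped reads of the library, so a level per transcript length). The symbol pattern matched 49 loci, and 46 of them passed. Psmc3ip, a recombination factor of meiosis that only shares the prefix, was among the 46 and was kept out of the groups, which left 45 proteasome genes among 12655 genes tested. The rule used the level and the symbol but not the difference between genotypes. The *rd7* animals were Nr2e3 mutants on the C57BL/6J background, and the wild-type animals were C57BL/6J. All animals were 3 weeks old, and each of the 2 libraries per genotype was made from polyA RNA of 8 whole retinas pooled from 2 female and 2 male mice. The animals of a pool therefore cannot be separated, and the mutation is carried by every cell of the retina.

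The proteasome degrades proteins that carry ubiquitin chains. Its barrel-shaped 20S core has outer rings of alpha subunits, which form the gate, and inner rings of beta subunits, 3 of which (Psmb6, Psmb7 and Psmb5) cut peptide bonds. The 19S regulatory particle caps the barrel: the ATPases of its base unfold substrates, and its lid removes the ubiquitin. Activators of the Psme family can take the place of the 19S cap, dedicated chaperones assemble the core and the base, and in cells exposed to interferon the catalytic subunits are replaced by Psmb9, Psmb10 and Psmb8 to form the immunoproteasome. Photoreceptors renew their outer segments throughout life, and the proteasome is part of the machinery that clears misfolded proteins in them. Rods that lack Nr2e3, a transcription factor that represses cone genes in rods, become hybrid cells with rod and cone features.

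The libraries were of nearly equal depth, with an estimated 34900000 to 35600000 reads each, from what 1 read was worth in FPKM. Nr2e3 (mm9 chr9:59790578-59797886) was at 2493 and 1589 FPKM in the *rd7* libraries and at 385 and 394 FPKM in the wild-type libraries, so its transcripts were more abundant in the mutant (log2 difference 2.35 ± 0.20 SE, limma adjusted p = 0.0011), and a level over the whole locus does not check the mutation itself. The summed cone markers were at 4022 and 4381 FPKM in *rd7* and at 1232 and 1267 FPKM in wild-type, and the summed rod markers were at 7969 and 8672 FPKM against 10780 and 11000 FPKM. Of 8 Müller cell markers 5 (62.5%) were higher and none lower at an FDR of 5%, beside 37.6% and 8.8% of all genes tested. After a correction for GC content and length 4 were higher and none lower, against 12.4% and 15.1% of all genes. The Müller cell markers summed to 2151 and 2087 FPKM in *rd7* and 1906 and 1973 FPKM in wild-type. Their median log2 difference was 0.44, and 0.24 after that correction. Markers of the pigment epithelium summed to 56.8 and 51.9 FPKM against 31.0 and 18.5 FPKM, and those of blood to 76.8 and 161 FPKM against 271 and 318 FPKM. The part of these shifts in the proteasome values was not tested. The median log2 difference of all genes tested was 0.15 on the deposited scale. In pooled tissue, a change in the number of cells of a type and a change in the RNA per cell cannot be told apart.

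Promoters of these genes are shown first, since proteasome genes are known to share transcriptional control: the factor Nfe2l1 raises them together through antioxidant response elements when proteasome activity falls, ETS-family factors bind many housekeeping promoters, and STAT factors act through GAS elements in interferon signalling. RefSeq windows (GRCm38.p6) reaching from 250 bases before the transcription start to 50 bases after it were given for 38 of the 45 genes, in 41 windows of 32851 for all genes. The 250 bases before the start are printed for Psmg1, the gene with the largest difference between genotypes, for Psmd6, a lid gene called higher with an ETS core, for Psmb5, a catalytic gene with an antioxidant response element core, and for Psmb8, its immunoproteasome counterpart. Capitals mark CCGGAAG (ETS core), TGACNNNGC (antioxidant response element core) and TTCNNNGAA (GAS element), searched on both strands, and each sequence is written in the direction of its gene.
Psmg1, chr16:95990961-95991210, minus strand: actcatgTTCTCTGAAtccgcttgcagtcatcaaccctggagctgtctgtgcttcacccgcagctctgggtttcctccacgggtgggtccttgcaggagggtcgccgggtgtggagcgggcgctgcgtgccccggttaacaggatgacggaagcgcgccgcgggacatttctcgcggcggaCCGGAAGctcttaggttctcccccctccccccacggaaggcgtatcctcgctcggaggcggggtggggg
Psmd6, chr14:14120946-14121195, minus strand: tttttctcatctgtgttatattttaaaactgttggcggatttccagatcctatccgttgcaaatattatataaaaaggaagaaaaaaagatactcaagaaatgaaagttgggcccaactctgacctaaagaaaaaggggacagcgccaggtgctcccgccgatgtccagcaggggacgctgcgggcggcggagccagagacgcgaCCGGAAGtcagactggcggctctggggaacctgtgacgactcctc
Psmb5, chr14:54617996-54618245, minus strand: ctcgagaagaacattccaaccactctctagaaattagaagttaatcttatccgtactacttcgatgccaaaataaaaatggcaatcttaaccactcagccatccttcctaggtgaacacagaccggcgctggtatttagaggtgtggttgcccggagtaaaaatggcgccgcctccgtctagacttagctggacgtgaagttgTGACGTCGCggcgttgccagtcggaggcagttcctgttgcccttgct
Psmb8, chr17:34197945-34198194, plus strand: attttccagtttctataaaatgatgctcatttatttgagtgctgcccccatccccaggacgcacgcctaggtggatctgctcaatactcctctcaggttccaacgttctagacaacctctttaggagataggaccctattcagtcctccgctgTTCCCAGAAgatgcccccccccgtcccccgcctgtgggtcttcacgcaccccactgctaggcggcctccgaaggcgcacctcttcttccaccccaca
In Psmg1 the ETS core lay 69 to 63 bases before the start and the GAS element 243 to 235 bases before it. In Psmd6 the ETS core lay 45 to 39 bases before the start, in Psmb5 the antioxidant core lay 47 to 39 bases before it, and in Psmb8 the GAS element lay 97 to 89 bases before it. The ETS core was in 36.6% of the proteasome windows and in 8.86% of all windows. The antioxidant core was in 14.6% of the proteasome windows (those of Psmb5, Psmb6, Psmc6, Psmd9, Psmd12 and Psme4) and in 12.4% of all windows. The GAS element was in 7.32% and 8.3%, the GC box (GGGCGG) in 56.1% and 35.7%, the CCAAT box (CCAAT) in 29.3% and 37.4%, the TATA box (TATAAA) in 9.76% and 13.6%, and the interferon-stimulated response element in 12.2% and 3.44% of the proteasome windows and of all windows. Matches of the GC box shared bases with an antioxidant core in 1 proteasome window and with an ETS core in 1 window, and no other pair of motifs shared bases. The windows of Psmb8, Psmb9 and Psmb10 had no match to the interferon-stimulated response element as written.

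The standard subunits of the core and of the 19S particle were all above the median of all genes tested. That median was 10.9 and 10.8 FPKM in the *rd7* libraries and 9.655 and 9.78 FPKM in the wild-type libraries. The 14 standard core subunits had a median of 82.1, 81.9, 79.1 and 79.5 FPKM in *rd7* replicates 1 and 2 and wild-type replicates 1 and 2, and the 17 subunits of the 19S particle had a median of 55.3, 54.7, 47.4 and 47.7 FPKM. Over the core subunits the highest mean level (Psmb4) was 3.46 times the lowest (Psma5). For the 19S subunits the highest (Psmd4) was 4.55 times the lowest (Psmd11). Chaperones and activators were lower, from 8.41 FPKM for Psmd10 to 35.7 FPKM for Psme3 in the wild-type mean, and the immunoproteasome subunits were lowest. Replicates were close: the median absolute log2 difference between replicates over the 45 genes was 0.046 in *rd7* and 0.041 in wild-type.

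**Figure D1:**
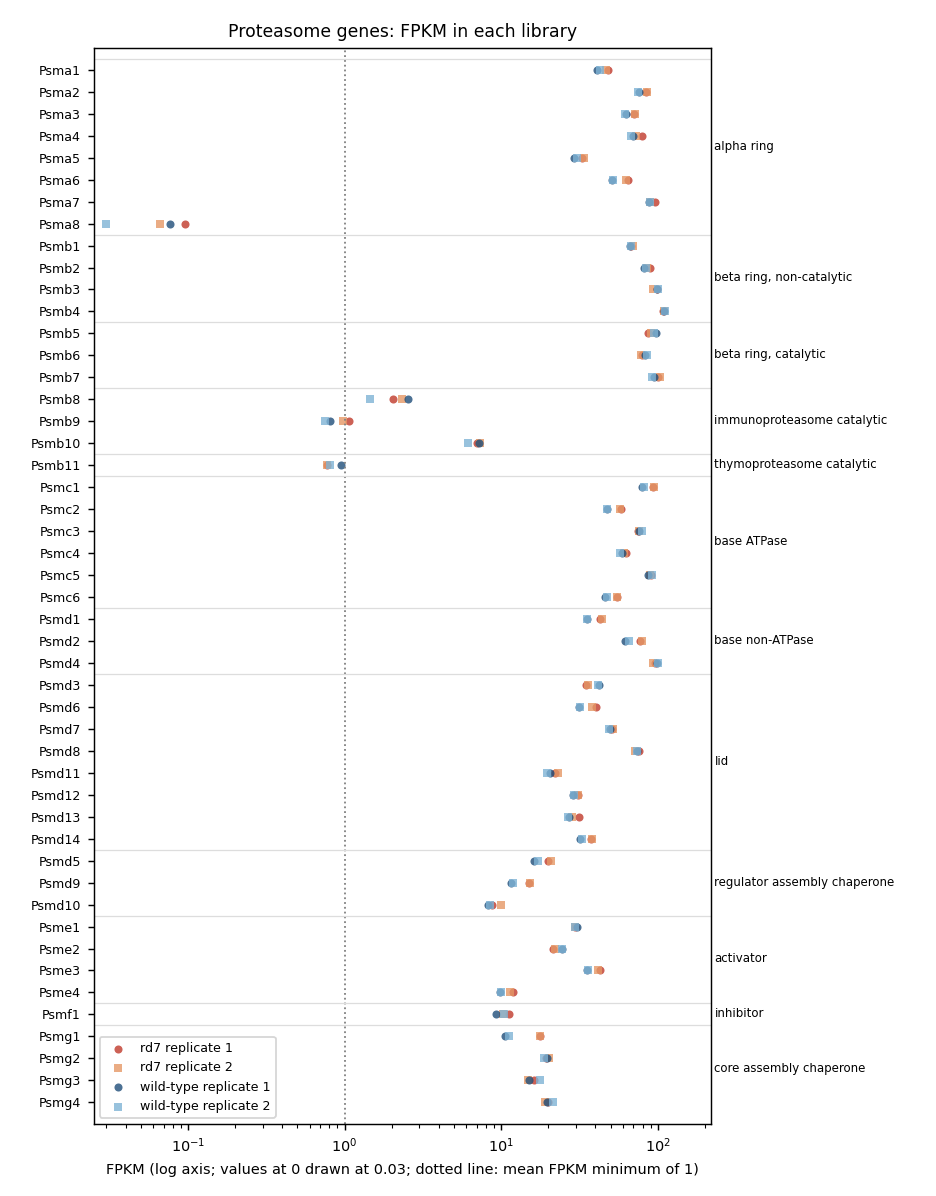
FPKM of each proteasome gene on a log axis, with 1 point per library (circles for replicate 1, squares for replicate 2) and genes grouped by role. The standard core subunits sit between 29.4 and 111 FPKM in every library, whereas Psmb8 and Psmb9 sit between 0.748 and 2.56 FPKM, and the dotted line marks the minimum of 1 FPKM.

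Of the 45 proteasome genes, 18 (40.0%) were higher and 2 (4.44%) lower in *rd7* at an FDR of 5% (limma on log2(FPKM + 0.1), adjusted over all genes), and 25 were not called. Over all genes tested 37.6% were called higher and 8.8% lower, so the proteasome genes as a whole moved about as the rest of the table did. Their median log2 difference was 0.13 against 0.15 for all genes, and 22 of the 45 lay above the median of all genes. Both *rd7* libraries were above both wild-type libraries for 28 genes and below them for 7, where the shares over all genes were 57.1% and 19.5%. The groups of subunits are described in turn. The calls rested on both wild-type libraries: without wild-type replicate 1, only Psmg1 was still called higher and no gene lower (14 higher and 1 lower at an unadjusted p under 0.05, with 10.2% of all genes called higher and 1.77% lower), and without wild-type replicate 2, Psmg1, Psmd9 and Psmd2 were called higher and no gene lower (14 and 1 unadjusted, with 16.8% of all genes called higher and 2.67% lower). At an FDR of 1%, 7 proteasome genes were higher and none lower, where 20.4% and 3.52% of all genes were called (the unadjusted counts were 20 higher and 2 lower).

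**Figure D2:**
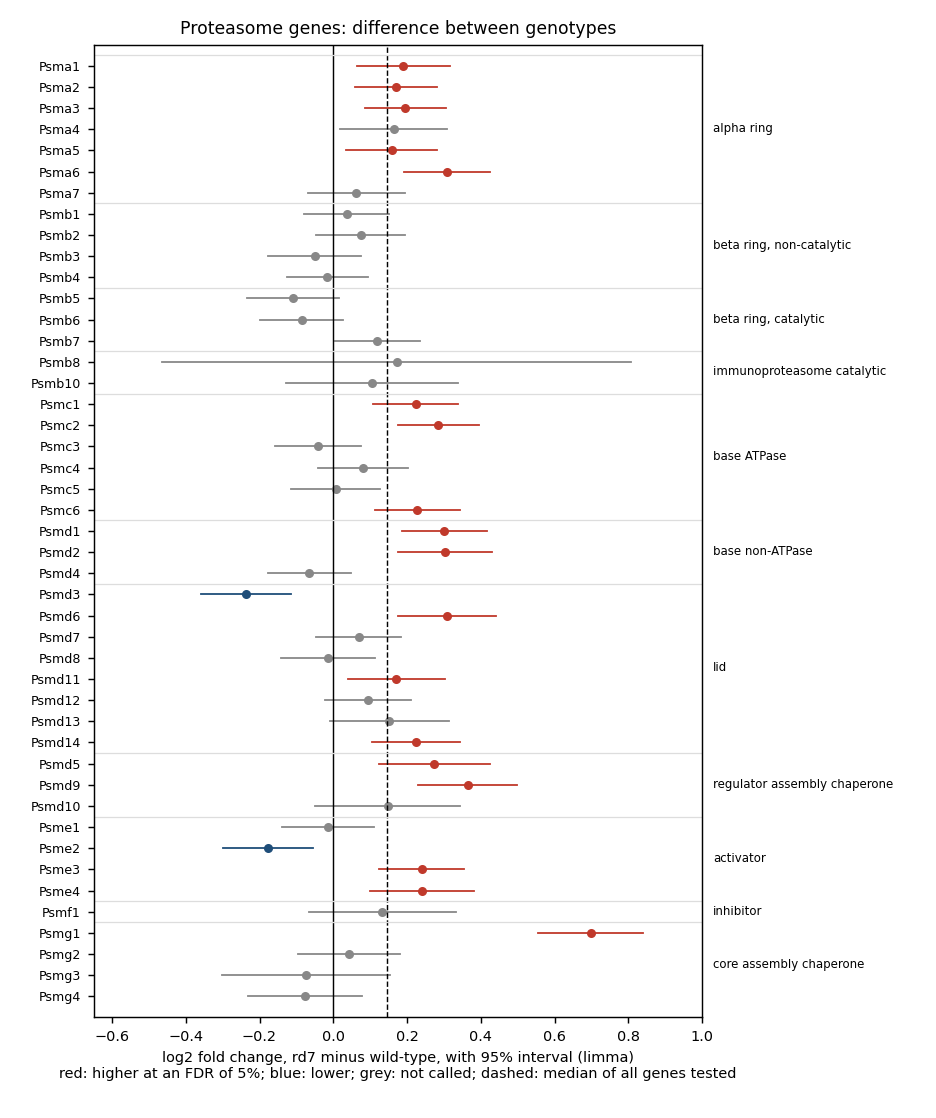
Log2 difference of each proteasome gene on the deposited scale, *rd7* minus wild-type, with its 95% limma interval, grouped by role (red higher, blue lower, grey not called at an FDR of 5%). The dashed line is the median of all genes tested at 0.15. The alpha ring lies from 0.06 to 0.31, the beta ring from -0.11 to 0.12, and Psmg1 is farthest to the right at 0.70.

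On the deposited scale 5 of the 7 alpha ring subunits (71.4%) were called higher in *rd7* and none lower, beside 37.6% and 8.8% of all genes. After correction for GC content and length none was higher and 1 was lower, against 12.4% and 15.1% of all genes. Both mutant libraries were above both wild-type libraries for all 7 subunits, as they were for 57.1% of all genes. The log2 differences of the ring ran from 0.06 to 0.31 with a median of 0.17. Psma6 had the largest difference, at 64.5 and 62.4 FPKM in *rd7* and 50.9 and 51.6 FPKM in wild-type. The groups did not overlap, and the mutant was 1.24-fold higher (log2 difference 0.31 ± 0.047 SE, adjusted p = 0.005). Psma7, which had the smallest difference, was at 95.9 and 89.5 FPKM in *rd7* and 88.5 and 88.9 FPKM in wild-type (log2 difference 0.06, adjusted p = 0.367). Psma1, Psma2, Psma3 and Psma5 were called higher with log2 differences of 0.16 to 0.20, and Psma4 missed the threshold at 0.16 (adjusted p = 0.066). The symbol AY074887 lies on the opposite strand within Psma4, and without strand information its reads cannot be separated from those of Psma4.

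None of the 7 beta ring subunits was called in either direction (limma, 1 higher and 0 lower at an unadjusted p under 0.05). Over all genes 37.6% were called higher and 8.8% lower. The median log2 difference of the ring was -0.02, which is 0.16 below that of all genes. Psmb5, the chymotrypsin-like subunit and the target of proteasome inhibitors in the clinic (mm9 chr14:55232957-55236832, minus strand), was at 87.0 and 90.9 FPKM in *rd7* and 97.8 and 94.2 FPKM in wild-type. Psmb6, the caspase-like subunit, was at 79.6 and 78.7 FPKM in *rd7* and 82.9 and 85.0 FPKM in wild-type. Both *rd7* libraries were below both wild-type libraries for Psmb5 (log2 difference -0.11 ± 0.050 SE, adjusted p = 0.124) and for Psmb6 (-0.09 ± 0.046 SE, adjusted p = 0.175), without passing the test. Psmb7, the trypsin-like subunit, was at 100 and 103 FPKM in *rd7* and 94.6 and 92.3 FPKM in wild-type, with no overlap in the other direction (log2 difference 0.12, adjusted p = 0.084). The non-catalytic subunits Psmb1, Psmb2, Psmb3 and Psmb4 had log2 differences of -0.05 to 0.07, with Psmb3 at 98.8, 93.5, 98.2 and 101 FPKM in *rd7* replicates 1 and 2 and wild-type replicates 1 and 2, and Psmb2 at 89.3, 85.2, 82.0 and 83.7 FPKM. The values of Psmb3 overlapped between genotypes and those of Psmb2 did not. Pseudogene copies of Psma5, Psmb5, Psmb6 and Psmb7 are listed by RefSeq, and how the counting shared reads between these genes and their copies is not given in the sources used here.

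Alpha and beta subunits are present in equal numbers in the particle, so their ratio within a library was computed, which does not depend on how libraries were scaled. The geometric mean of the alpha ring over that of the beta ring was 0.725 and 0.708 in *rd7* and 0.631 in both wild-type libraries (0.6307 and 0.631). The ratio was thus higher in both mutant libraries. The exonic sequence of the alpha ring had a median GC content of 45.5% and that of the beta ring 50.7%, and genes of low GC content were higher in *rd7* across the whole table. The log2 values were then corrected for exonic GC content and length in each library. The median log2 difference was -0.09 for the alpha ring and -0.02 for the beta ring, so the difference between the rings was of the opposite sign. No subunit of either ring was then called higher, where 12.4% of all genes were. Psma2 of the alpha ring and Psmb3 and Psmb6 of the beta ring were called lower, where 15.1% of all genes were. The contrast of the rings therefore did not hold when base composition and length were taken into account.

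**Figure D3:**
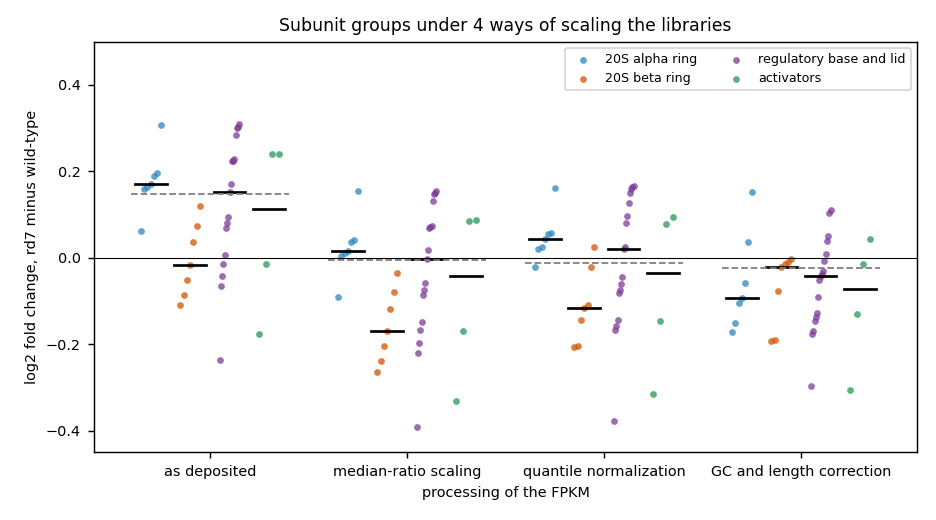
Log2 difference, *rd7* minus wild-type, of each subunit (points) with the group's median (black bar) under the deposited scale, median-ratio scaling, quantile normalization and a correction for GC content and length. Dashed lines mark the median of all genes. The alpha ring median lies at 0.17, 0.02, 0.04 and -0.09 and the beta ring median at -0.02, -0.17, -0.12 and -0.02 in that order.

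In the base of the 19S particle, 5 of 9 subunits (55.6%) were higher and none lower on the deposited scale, beside 37.6% and 8.8% of all genes. Under median-ratio scaling none was higher and 3 were lower, against 19.7% and 19.6% of all genes. Psmc2, an ATPase of the unfolding ring, was at 57.9 and 57.7 FPKM in *rd7* and 47.4 FPKM in both wild-type libraries. The groups were well apart for Psmc2 (log2 difference 0.29 ± 0.045 SE, adjusted p = 0.005). Psmc3, the ATPase at the other end of the range, was at 74.6 and 76.2 FPKM in *rd7* and 76.3 and 79.0 FPKM in wild-type (log2 difference -0.04, adjusted p = 0.494). Psmc1 and Psmc6 were also called higher (0.22 and 0.23), and Psmc4 and Psmc5 were not. Of the scaffold subunits, Psmd2 was at 77.0 and 79.8 FPKM in *rd7* and 61.9 and 65.2 FPKM in wild-type, and Psmd1 was at 42.9 and 43.9 FPKM against 35.3 and 35.1 FPKM. These large scaffolds, which bind shuttle factors and carry the lid, did not overlap between genotypes and had equal log2 differences of 0.30 (adjusted p = 0.007 for Psmd2 and 0.005 for Psmd1). The gene Htr2b overlaps Psmd1 on the opposite strand. Psmd4, a ubiquitin receptor, was at 96.3 and 93.9 FPKM in *rd7* and 99.3 and 99.7 FPKM in wild-type, below the wild-type libraries without passing the test (-0.06, adjusted p = 0.281).

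Of the 8 lid subunits, 3 (37.5%) were higher and 1 (12.5%) lower on the deposited scale, near the 37.6% and 8.8% of all genes. None was higher and 2 were lower under median-ratio scaling, against 19.7% and 19.6% of all genes. The counts were the same after the GC and length correction, against 12.4% and 15.1% of all genes. Psmd6 was at 40.6 and 38.1 FPKM in *rd7* and 31.5 and 32.0 FPKM in wild-type, and Psmd3 (mm9 chr11:98543868-98557292, plus strand) was at 34.7 and 36.0 FPKM in *rd7* and 42.0 and 41.3 FPKM in wild-type. Both are structural subunits of the horseshoe that holds the lid together, and they differed in opposite directions with no overlap of the genotypes (Psmd6 0.31 ± 0.053 SE, adjusted p = 0.007; Psmd3 -0.24 ± 0.049 SE, adjusted p = 0.012). Psmd3 was also called lower under median-ratio scaling, quantile normalization and the GC and length correction. Psmd14, the deubiquitinase of the lid, was higher (0.22, adjusted p = 0.013), as was Psmd11 (0.17, adjusted p = 0.044). Psmd7, the partner of Psmd14, was not called (0.07, adjusted p = 0.271), and neither were Psmd8, Psmd12 and Psmd13.

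Of the 3 chaperones that assemble the base, 2 were called higher, where 37.6% of all genes were. Their median log2 difference was 0.27 on the deposited scale and -0.0089 after the GC and length correction, where Psmd9 was still called higher. Psmd9 was at 15.0 and 15.3 FPKM in *rd7* and 11.6 and 11.9 FPKM in wild-type, which made it the gene with the second largest log2 difference of the 45 (0.36 ± 0.054 SE, adjusted p = 0.004). Psmd5 was called higher (0.27, adjusted p = 0.015). Psmd10, also known as the oncoprotein gankyrin, was at 8.74 and 9.95 FPKM in *rd7* and 8.29 and 8.54 FPKM in wild-type and was not called (0.15, adjusted p = 0.179).

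Among the chaperones of the core, Psmg1 stood alone. Psmg1 (mm9 chr16:96201542-96212510, minus strand) was at 17.8 FPKM in both *rd7* libraries and at 10.6 and 11.3 FPKM in the wild-type libraries. The mutant level was 1.62-fold higher with no overlap (log2 difference 0.70 ± 0.058 SE, adjusted p = 0.001). It was called higher under every alternative computed, with a largest adjusted p of 0.027, and its log2 difference was 0.55 under median-ratio scaling and 0.56 after the GC and length correction. Psmg1 works as a heterodimer with Psmg2 to build the alpha ring. Psmg2 was at 19.4 and 20.3 FPKM in *rd7* and 19.7 and 18.9 FPKM in wild-type, overlapping between genotypes (0.04, adjusted p = 0.563). Psmg3 and Psmg4, which form the other heterodimer, had log2 differences of -0.07 and -0.08 and were not called. Psmg4 was at 19.8, 19.1, 19.7 and 21.4 FPKM in the 2 *rd7* and then the 2 wild-type libraries. The chaperone that matures the beta ring, Pomp, was at 81.9 and 86.1 FPKM in *rd7* and 89.8 and 87.9 FPKM in wild-type (-0.08, not called).

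Of the 4 alternative activators, 2 were called higher and 1 lower, where 37.6% and 8.8% of all genes were called. Psme1 and Psme2 are the interferon-inducible pair that forms a mixed ring on the core. Psme2 (mm9 chr14:56206277-56209938, minus strand) was at 21.4 and 22.0 FPKM in *rd7* and 24.6 and 24.4 FPKM in wild-type, the only activator lower in the mutant (-0.18 ± 0.049 SE, adjusted p = 0.032). The copy Psme2b in the RefSeq table may share its reads. Psme1 was at 29.7 and 29.8 FPKM in *rd7* and 30.7 and 29.4 FPKM in wild-type, so the genotypes overlapped (-0.01, adjusted p = 0.826), and Fam158a overlaps it on the opposite strand. Psme3, the nuclear activator, was at 42.5 and 41.7 FPKM in *rd7* and 35.4 and 35.9 FPKM in wild-type. Psme4, which acts on histones during DNA repair and sperm formation, was at 11.9 and 11.4 FPKM in *rd7* and 9.81 and 9.93 FPKM in wild-type. Both of these nuclear activators were higher without overlap (each 0.24, adjusted p = 0.010 and 0.019), although after the GC and length correction Psme4 was at -0.13 and not called. Psmf1, an inhibitor of the core in vitro, was at 11.3, 10.3, 9.29 and 10.4 FPKM in the 2 *rd7* and the 2 wild-type libraries, with overlap (0.13, adjusted p = 0.222).

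The immunoproteasome was a minor form at the RNA level in both genotypes. Psmb8 (mm9 chr17:34335140-34338399) was at 2.04 and 2.34 FPKM in *rd7* and 2.56 and 1.46 FPKM in wild-type. The wild-type replicates spanned both mutant values (log2 difference 0.17 ± 0.26 SE, 95% interval -0.46 to 0.81, adjusted p = 0.610), and without wild-type replicate 2 the difference was -0.21. Psmb10 (mm9 chr8:108459628-108462292) was at 6.99 and 7.31 FPKM in *rd7* and 7.21 and 6.10 FPKM in wild-type and also overlapped (0.11, 95% interval -0.13 to 0.34, adjusted p = 0.392), and its difference was -0.01 without wild-type replicate 2. Psmb9 (mm9 chr17:34319044-34324275), at 1.07 and 0.979 FPKM in *rd7* and 0.803 and 0.748 FPKM in wild-type, had a mean just under the minimum of 1 FPKM and fell outside the genes tested, while Psmb8 was the lowest gene to pass. Estimated reads were 142 to 248 per library for Psmb8, 97 to 138 for Psmb9 and 276 to 324 for Psmb10, which gives a counting error of 8.40%, 10.2% and 6.02% in the shallowest library of each. Neither tested subunit had an unadjusted p under 0.05.

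As each immunoproteasome subunit takes the place of a standard subunit, their ratio within a library was formed, which cancels the scaling. Psmb8 was at 2.35% and 2.58% of Psmb5 in *rd7* and at 2.61% and 1.55% in wild-type. Psmb10 was at 6.98% and 7.11% of Psmb7 in *rd7* and at 7.62% and 6.61% in wild-type. Psmb9 was at 1.34% and 1.25% of Psmb6 in *rd7* and at 0.968% and 0.879% in wild-type. The first pair of ratios overlapped between genotypes (exact permutation test on log2 ratios, two-sided p = 1.0 for both), and the Psmb9 ratio was higher in both mutant libraries by 0.44 on the log2 scale (exact two-sided p = 0.333, the smallest that 2 against 2 libraries can give). No ratio could pass a 5% threshold in this design.

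**Figure D4:**
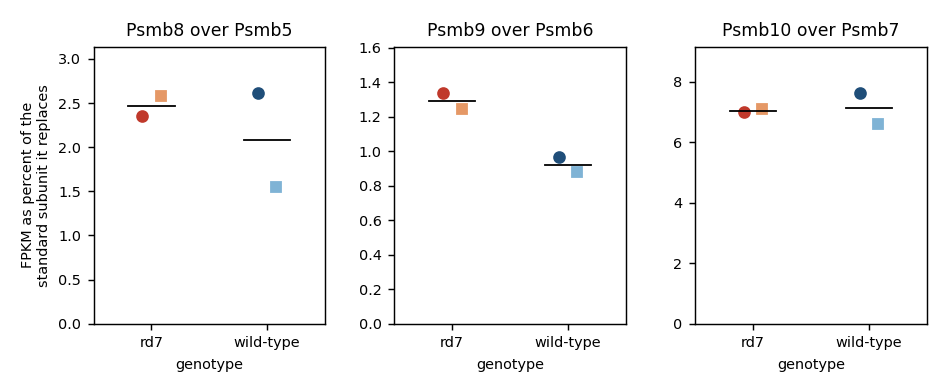
Level of each immunoproteasome subunit as a percentage of the standard subunit it replaces, with 1 point per library (circles replicate 1, squares replicate 2) and bars at the genotype means. Psmb8 over Psmb5 lies between 1.55% and 2.61%, Psmb9 over Psmb6 between 0.879% and 1.34%, and Psmb10 over Psmb7 between 6.61% and 7.62%, and only for Psmb9 do the *rd7* points lie apart from the wild-type points.

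Immunoproteasome genes are strongly expressed in immune cells, so markers of such cells were read beside them. The 13 microglial and macrophage markers summed to 32.4 and 43.1 FPKM in *rd7* and to 29.4 and 29.8 FPKM in wild-type. Of 9 tested, 3 were higher (Csf1r, P2ry12 and C1qc) and none lower, a share of 33.3% beside 37.6% of all genes. The 6 T cell markers listed summed to 0.816 to 1.34 FPKM, with Cd3e at 0 in every library, and endothelial markers summed to 57.9 and 42.0 FPKM against 35.0 and 37.3 FPKM. Genes of the interferon and MHC class I axis, which act with the immunoproteasome in antigen presentation, were called higher in 5 of 14 cases (35.7%, beside 37.6% of all genes) and lower in none (0 lower at an unadjusted p under 0.05), with a median log2 difference of 0.27. After the GC and length correction none was higher and 2 were lower (median 0.05), and without wild-type replicate 1 none was called (4 higher and 0 lower at an unadjusted p under 0.05). H2-D1 was at 15.4 and 24.4 FPKM in *rd7* and 12.7 and 11.7 FPKM in wild-type (0.67, adjusted p = 0.041). For H2-D1, as for the microglial sum, *rd7* replicate 2 was the highest library. Erap1 (0.69, adjusted p = 0.004) and Jak2 (0.37, adjusted p = 0.007) were also higher. After the GC and length correction Erap1 was at 0.34 (adjusted p = 0.057), Jak2 at 0.05 (adjusted p = 0.573) and H2-D1 at 0.58 (adjusted p = 0.094). The part of immune cells in the levels of Psmb8, Psmb9 and Psmb10 was not tested.

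The direction given to much of the proteasome depended on how the libraries were scaled. Under median-ratio scaling, which brings the median of all genes to about 0 (log2 difference -0.0049), 3 proteasome genes were higher (Psma6, Psmd9 and Psmg1) and 12 lower, when 19.7% and 19.6% of all genes were called. The 12 were Psmd3 and Psme2 with Psmb3, Psmb4, Psmb5, Psmb6, Psmc3, Psmc5, Psmd4, Psmd8, Psme1 and Psmg4, so that 4 of the 7 beta subunits were then called lower. Under quantile normalization 5 were higher (Psma6, Psmc2, Psmd2, Psmd9 and Psmg1) and 7 lower, against 18.6% and 19.0% of all genes. After the GC and length correction 2 were higher (Psmd9 and Psmg1) and 6 lower (Psma2, Psmb3, Psmb6, Psmd3, Psmd12 and Psme2), against 12.4% and 15.1% of all genes. After that correction 9 of the 18 genes called higher on the deposited scale (Psma1, Psma2, Psma3, Psmc2, Psmc6, Psmd5, Psmd11, Psmd14 and Psme4) had log2 differences below 0, from -0.17 to -0.0089. Psmg1 and Psmd9 were higher and Psmd3 and Psme2 lower under all 3 of these scalings.

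The differences followed base composition and gene size among the proteasome genes, as they did across the table. Over the 45 genes, the log2 difference had a Pearson correlation of -0.53 (Spearman -0.65) with exonic GC content, where the values over 12258 annotated genes were -0.30 and -0.44. With the length of the locus the correlation was 0.42 (Spearman 0.49) over the 45 genes and 0.27 (0.33) over all. These are descriptions across genes of the same 4 libraries, and genes are not independent replicates. The median GC content was 45.4% for the 18 genes called higher, 51.9% for those not called and 52.9% for the 2 called lower, and the median locus was 19.1 kb, 8.10 kb and 8.54 kb. Of the 14 genes with an ETS core in the window, 10 were called higher and none lower on the deposited scale. Of the 24 with a window without it, 8 were higher and 1 lower, and over all genes 37.6% were higher and 8.8% lower. After the GC and length correction 2 of the 45 genes were higher (Psmd9 and Psmg1) and 6 lower, against 12.4% and 15.1% of all genes. The genes with the ETS core had a median exonic GC content of 47.4% against 50.6%, and after the GC and length correction their median log2 difference was 0.02 against -0.04. Of the 6 genes with the antioxidant core, 3 were called higher and none lower on the deposited scale, beside 37.6% and 8.8% of all genes. Whether the motifs or the base composition bear on the differences was not tested.

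**Figure D5:**
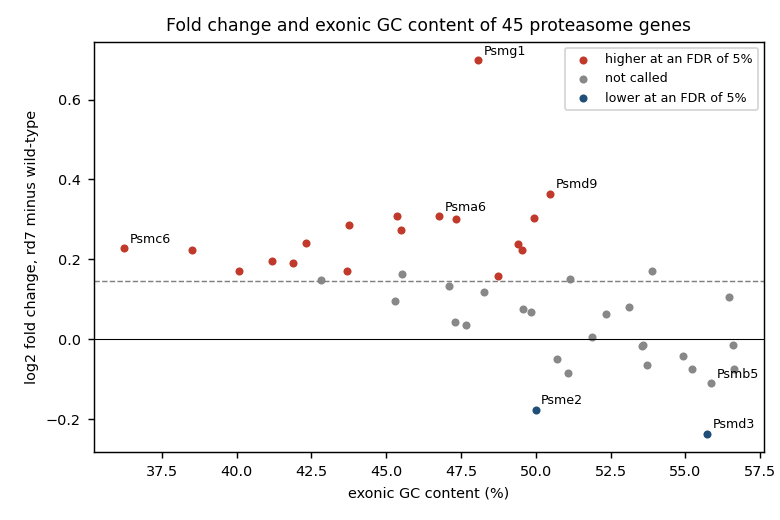
Log2 difference, *rd7* minus wild-type, against exonic GC content for the 45 proteasome genes (red higher, blue lower, grey not called at an FDR of 5%). The dashed line marks the median of all genes at 0.15. The points fall from left to right (Pearson -0.53), Psmg1 lies above the others at 0.70, and Psmd3 and Psme2 lie lowest.

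Partner genes that deliver substrates to the proteasome or trim their ubiquitin were read beside the subunits. The list of deubiquitinases and shuttle factors also held the ubiquitin ligases Ube3a and Ube3c, and Txnl1. Of its 14 genes tested, 10 (71.4%), these 3 among them, were called higher and none lower (limma, 1 lower at an unadjusted p under 0.05). Over all genes 37.6% were higher and 8.8% lower. After the GC and length correction 4 were higher and 2 lower, against 12.4% and 15.1% of all genes. The median log2 difference of the list was 0.34 on the deposited scale and 0.06 after that correction. The difference from the subunits was not tested. The protease and shuttle Ddi2 was at 16.3 and 17.2 FPKM in *rd7* and 9.68 and 10.6 FPKM in wild-type (0.72 ± 0.069 SE, adjusted p = 0.001), a difference close to that of Psmg1. The proteasome-bound ubiquitin ligases Ube3a and Ube3c (0.64 and 0.50) and the deubiquitinase Usp14 (0.46) were higher with adjusted p of 0.002, 0.002 and 0.003. After the GC and length correction Ddi2, Ube3a and Ube3c were still called higher (0.45, 0.27 and 0.23), and Usp14 was not (0.08, adjusted p = 0.338). Uchl5, the other deubiquitinase of the base, overlapped between genotypes at 14.7, 16.6, 16.0 and 15.3 FPKM in the 2 *rd7* and the 2 wild-type libraries.

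Of 6 subunits and maturation factors with other symbols, AI314180, the proteasome-binding protein also named Ecm29, was higher at 18.3 and 18.5 FPKM against 12.9 and 13.7 FPKM (0.47, adjusted p = 0.003), and was at 0.09 (adjusted p = 0.216) after the GC and length correction. The ubiquitin receptor Adrm1 was lower at 30.4 and 29.2 FPKM against 34.2 and 33.4 FPKM (-0.18, adjusted p = 0.032), and the other 4 were not called. Among 7 regulators of proteasome transcription, Stat3 (0.90, adjusted p = 0.029), Nfe2l2 (0.42, adjusted p = 0.007) and Nfyb (0.29, adjusted p = 0.025) were higher and none was lower (0 at an unadjusted p under 0.05). The share called higher was 42.9%, beside 37.6% of all genes. Stat3 was at 18.6 and 32.8 FPKM in *rd7* and 13.0 and 13.3 FPKM in wild-type, with *rd7* replicate 2 far above the rest. Stat3 was not called under median-ratio scaling, quantile normalization or the GC and length correction (adjusted p = 0.062, 0.073 and 0.085), and Nfyb was called under none of them either. Nfe2l2 was at 0.12 (adjusted p = 0.295) after that correction, where none of the 7 regulators was higher and 2 were lower. Nfe2l1, which controls the subunit genes directly and is cleaved by Ddi2, was at 49.1 and 52.5 FPKM in *rd7* and 47.1 and 48.7 FPKM in wild-type and was not called (0.08), and its difference was negative under median-ratio scaling (-0.07) and quantile normalization (-0.04). In the list of 11 ubiquitin and p97 genes, 6 (54.5%) were higher, among them Vcp (0.23), Faf2 (0.22) and Faf1 (0.20). Another 2 (18.2%) were lower, where 37.6% of all genes were called higher and 8.8% lower. None of the 6 higher genes was called higher under median-ratio scaling, and the median of the list went from 0.17 on the deposited scale to -0.07 after the GC and length correction.

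Other large complexes of the cell were read beside the proteasome for scale. Of 8 subunits of the CCT chaperonin, which folds actin and tubulin, 6 were higher and none lower (0 lower at an unadjusted p under 0.05), with a median log2 difference of 0.23 on the deposited scale and -0.04 after the GC and length correction. Of 81 cytosolic ribosomal protein genes 9 were higher and 16 lower, and of 75 nuclear genes of oxidative phosphorylation 9 were higher and 13 lower, each with a median of -0.06, which stayed below 0 under every scaling, beside 37.6% higher and 8.8% lower over all genes. Under median-ratio scaling these counts were 2 and 46 for the ribosomal genes and 2 and 45 for those of oxidative phosphorylation. Over all genes 19.7% were then higher and 19.6% lower. On the deposited scale the proteasome median of 0.13 lay between these families. The differences between families were not tested.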

How the data were processed

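PolyA RNA from 4 retina pools was sequenced as single reads of 50 bp. The authors mapped the reads to mm9 with TopHat 1.4.1 and estimated gene levels with Cufflinks 1.3.0, and the deposited values are FPKM per gene and library, each with a status. The annotation they used is not given in the sources used here. A deposited table of the authors' own genotype comparison (pooled FPKM, fold changes, p-values and q-values) was not used.

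Of 22095 loci, the 12655 with status OK in every library and a mean of at least 1 FPKM were tested with limma 3.58.1 (R 4.3.3) on log2(FPKM + 0.1), with a variance trend and Benjamini-Hochberg adjustment at an FDR of 5%. This scale understates the change of low genes. The procedure was run on simulated data with 200 changed genes and independent noise. That simulation had no shift of the median and no trend with GC content, so it cannot check calls made where these are present. Depth was estimated from the spacing of low FPKM values, and estimated reads use the union of annotated exons, which runs high for genes with several transcripts. Counting errors cover counting only. Exonic length and GC content came from an annotation of the same build (all 45 proteasome genes matched).

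The members, roles and lists were chosen with earlier results of these data known. Values of each library were given for the catalytic, immunoproteasome, activator and inhibitor genes, the extremes of each other role, members called lower, the 6 largest rises and, per partner list, up to 4 called genes with the largest change, with Nfe2l1, Pomp and Adrm1. Psmg2, Uchl5 and the microglial genes were added after their values were seen. Symbols caught by the ribosomal and oxidative phosphorylation patterns that are no subunits were removed. Some genes of the partner lists are not reported here by name. Alternatives were other pseudocounts, filters and scalings, a GC and length correction (splines with 5 degrees of freedom), no variance trend, a replicate block, an FDR of 1% and leaving out each library.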

Additional observations from a re-analysis of the deposited data

How the results depend on the processing

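With 2 libraries per genotype, most calls depended on the scaling and on having both wild-type libraries in the fit. The median log2 difference of the 45 genes was 0.13 with all libraries. It was 0.14 without wild-type replicate 1 and 0.11 without wild-type replicate 2. Of proteasome genes, 18 were higher and 2 lower as reported, 3 and 12 under median-ratio scaling, 5 and 7 under quantile normalization, 2 and 6 after the GC and length correction, and 7 and 0 at an FDR of 1% (2 lower at an unadjusted p under 0.05). Leaving out 1 library each gave 1 to 20 higher and 0 to 3 lower, the fewest without wild-type replicate 1. Without a variance trend 14 were higher and 1 lower, and without a filter on low FPKM 12 and 2. The shares of all genes called under these settings are not given here. At an unadjusted p under 0.05 (limma), 18 and 2 of the 45 passed without a variance trend, against 20 and 2 with it. Over all genes these counts were 5367 and 1327 without it and 5517 and 1408 with it. The labels tie the libraries of the 2 genotypes only by number. Deviations from the genotype means of those numbered 1 correlated at -0.03 over 12655 genes and at -0.48 over the 45 proteasome genes. These correlations cannot show whether libraries of the same number were prepared together. The replicate block gave 16 of the 18 higher and 1 lower (Psme2 was lost, adjusted p = 0.0501, limma).

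Median log2 differences under median-ratio scaling, quantile normalization and the GC and length correction were -0.020, -0.021 and -0.038 for all proteasome genes, 0.016, 0.044 and -0.092 for the alpha ring, and -0.042, -0.035 and -0.072 for the activators. They were -0.0025, 0.021 and -0.043 for the 19S particle and -0.17 and -0.12 (first 2 settings) for the beta ring. Leaving out 1 library gave medians of 0.10 to 0.14 for all, 0.18 to 0.19 for the alpha ring and 0.10 to 0.17 for the 19S particle. The difference in the Psmb9 to Psmb6 ratio was 0.27 with a pseudocount of 1.

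Partner genes, 25 higher and 3 lower as reported with a median of 0.20, gave 11 and 9 (median 0.043) under median-ratio scaling, 10 and 9 (0.039) under quantile normalization, 4 and 11 (0.0052) after the GC and length correction, 11 and 0 at an FDR of 1% and 11 and 0 without a filter (4 lower at an unadjusted p under 0.05). The partner lists held 6, 14, 7, 11 and 14 genes tested. Of all genes, 37.6% were higher and 8.8% lower as reported, and 19.7% and 19.6% under median-ratio scaling. These shares were 18.6% and 19.0% under quantile normalization and 12.4% and 15.1% after the GC and length correction. At an FDR of 1% they were 20.4% and 3.52%, and those of the other settings are not given here. Without a variance trend 1 partner gene was lower. Leaving out 1 library gave 7 to 29 higher and 0 to 5 lower.

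The sign changed for 13 of the 45 proteasome genes under median-ratio scaling, for 12 under quantile normalization and for 23 after the GC and length correction. Among the genes chosen for full values, those under median-ratio scaling were Psmb7 (-0.035), Psmb10 (-0.046), Psmf1 (-0.020), Psma7 (-0.091), Psmb2 (-0.080), Psmd10 (-0.0052) and Nfe2l1 (-0.070). Under quantile normalization they were Psmb8 (-0.030), Psmb10 (-0.074), Psmf1 (-0.025), Psma7 (-0.022), Psmb2 (-0.021), Psmd10 (-0.018) and Nfe2l1 (-0.041). After the GC and length correction they were Psmb7 (-0.0028), Psme4 (-0.13), Psmf1 (-0.15), Psma7 (-0.059), Psmb2 (-0.015), Psmc2 (-0.038), Psmd10 (-0.093), Psmg4 (0.086), Nfyb (-0.025), Vcp (-0.032) and Faf1 (-0.10). Leaving out 1 library gave -0.21 to 0.56 for Psmb8, -0.012 to 0.22 for Psmb10 and -0.046 to 0.016 for Psme1. The cause of these changes was not tested.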

Other observations

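Beside Psmb9, the symbols under the level minimum were Psma8 and Psmb11. Psma8, the alpha subunit of the testis, was at 0.0954 and 0.0668 FPKM in *rd7* and at 0.0771 FPKM and 0 in wild-type. Psmb11, the catalytic subunit of the thymus, was at 0.772 and 0.778 FPKM in *rd7* and at 0.949 and 0.805 FPKM in wild-type. Psmc3ip, which is no proteasome subunit, was at 4.79 and 5.20 FPKM in *rd7* and at 6.29 and 6.23 FPKM in wild-type (log2 difference -0.32 ± 0.073 SE, limma adjusted p = 0.017), and the gene Mlx overlaps it on the opposite strand.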
